A study of Mus musculus with 1037 samples.

Results

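The genes described here are 10 members of the fibroblast growth factor (FGF) pathway with roles in hair cycling: the ligands *Fgf5*, *Fgf18* and *Fgf22*, the receptors *Fgfr1*, *Fgfr2* and *Fgfr3*, and the feedback inhibitors *Spry1*, *Spry2*, *Spry4* and *Spred1*. They were chosen by role, and a gene was taken as the row of the count table whose Ensembl identifier carries that symbol in GENCODE. All 10 of the 10 had 1 row among the 55335 genes of the table, and their levels were read in the 463 cells with a group label and at least 2000 detected genes, of 1035 cells with a group label and counts. Over these cells 9 members had 100 or more counts, up to 81225 for *Fgfr1*, and *Fgf22* had 40.

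The cells are single outer root sheath (ORS) and bulge stem cells from the skin of wild-type mice, sequenced one by one with Smart-seq2, a full-length method without molecular identifiers. They were sorted as integrin α6 and CD34 positive cells that lack Sca1 and the surface proteins of blood, endothelial, fibroblast and melanocyte lineages. At AnaVI, the last growth phase of the follicle, the sorts were LOS (lower ORS, from the dermal fraction; 39 passing cells), and MOS (38 cells) and UOS, both from the epidermal fraction. At CatVI, late regression, the cells came on plates labelled P17f: pl1 and pl2 (PhagoHFSC_alive; 19 and 9 cells), pl5 (PhagoHFSC_apop; 15) and pl6 (NonPhagoHFSC_apop; 14), where Phago stands for phagocytic cells in the terms of the study and apop for cells that carried annexin V, a marker of dying cells. Plates pl3 and pl4 (NonPhagoHFSC_alive) had no passing cell. At CatVII, the end of regression, the sorts were OSalive and OSapop (92 cells). UOS and OSalive were the largest groups, and 83.6% and 80.1% of their cells passed. Each stage pooled 3 to 6 mice, so each sort or plate is 1 sample and no test between conditions was made. The labels name no treatment in any of these groups, and they give an age only in the prefix P17f of the CatVI plates, taken here as postnatal day 17.

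FGF ligands are secreted or cell-associated proteins that bind receptor tyrosine kinases together with heparan sulphate, and the receptors pass the signal on through RAS and ERK. Sprouty and Spred proteins are induced by this signal and dampen it. In hair, FGF5 is the classical factor that ends the growth phase, its loss giving long hair, while FGF18 from the bulge is known for holding follicles in the resting phase.

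The passing cells held 1840012 gene counts on pl6, the shallowest sample, to 287377663 in OSalive, with medians of 90483 to 2182588 counts per cell. Levels are therefore given as CPM, the counts of a gene in 1000000 summed gene counts of a sample, with an exact 95% Poisson interval in parentheses, and shares of cells with an exact (Clopper-Pearson) interval, both of which cover counting error only. A count of 0 allows up to 3 counts, printed as the limit. One gene, ENSMUSG00000106106.2, took 56.3% to 66.5% of the counts and annotated genes 19.3% to 28.7%, so CPM are low for all members. Outer root sheath and bulge markers summed to 1406 to 7080 CPM over the 9 groups, with *Ccn2* at 0 on pl1, pl5 and pl6 and none of the other 14 at 0 in any group. *Cd34*, a sort marker, stood between 21.5 and 111.1 CPM in the AnaVI and CatVII sorts but between 1.46 and 9.72 CPM on the CatVI plates. Fibroblast and dermal papilla markers (8 genes) summed to 1408 CPM in LOS, 354.9 CPM in UOS, 186.5 to 188.7 CPM in CatVII and 4.0 to 45.9 CPM elsewhere. Inner root sheath and hair shaft markers (9 genes) reached 904 CPM in UOS and 442 CPM in LOS and stayed between 31.8 and 107.6 CPM in the other 7 samples. Fewer cells of a type and less RNA per cell cannot be told apart in a summed level. Shares or numbers of cells therefore stand beside the levels of the members, but not beside those of other genes of the pathway.

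Among the ligands, *Fgf5* and *Fgf18* had nearly opposite patterns. *Fgf5* was detected in AnaVI and on 3 of the 4 CatVI plates and was almost absent from CatVII, while *Fgf18* was detected in CatVII and almost nowhere else. The windows of 250 bases before the start of *Fgf5*, *Fgf18* and *Spred1* are shown because these are the members that differed most between OSalive and UOS with 100 or more counts. They are RefSeq promoter windows of GRCm38.p6, written 5′ to 3′ on the strand of the gene, with GC boxes (GGGCGG on either strand) in capitals.
Fgf5, chr5:98253934-98254183, plus strand: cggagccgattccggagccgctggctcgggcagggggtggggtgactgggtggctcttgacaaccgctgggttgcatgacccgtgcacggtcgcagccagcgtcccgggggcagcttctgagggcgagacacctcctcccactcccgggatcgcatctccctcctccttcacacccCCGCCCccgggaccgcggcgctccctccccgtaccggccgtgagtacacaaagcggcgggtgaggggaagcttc
Fgf18, chr11:33147401-33147650, minus strand: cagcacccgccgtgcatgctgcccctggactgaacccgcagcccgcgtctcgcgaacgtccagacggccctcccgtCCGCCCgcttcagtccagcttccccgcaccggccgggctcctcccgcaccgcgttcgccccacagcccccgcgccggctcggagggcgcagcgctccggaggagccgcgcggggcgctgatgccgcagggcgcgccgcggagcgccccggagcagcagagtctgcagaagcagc
Spred1, chr2:117120821-117121070, plus strand: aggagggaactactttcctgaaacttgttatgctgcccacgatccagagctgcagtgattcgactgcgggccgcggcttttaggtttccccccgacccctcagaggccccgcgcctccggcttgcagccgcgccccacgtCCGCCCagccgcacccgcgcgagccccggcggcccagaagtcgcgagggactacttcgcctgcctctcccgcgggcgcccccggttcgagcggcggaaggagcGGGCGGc
The 3 windows were 70.8%, 77.2% and 70.8% G or C, against a median of 52.4% over 32851 such windows. *Fgf5* and *Fgf18* had 1 GC box each and *Spred1* had 2, and 32.7% of all windows held at least 1. The letters CANNTG (E-box; in 66.2% of all windows), TATAAA (12.4%), AGGTCA (nuclear receptor half-site; 14%), TGACTCA (AP-1; 4.46%) and CCGGAAG (ETS; 6.91%) were searched on both strands and are in none of the 3 windows.

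*Fgf5* (ENSMUSG00000029337.2, GRCm39 chromosome 5, 98401780 to 98452320), the signal that ends growth, had 7.28 CPM (5.75 to 9.08) in LOS, 1.053 CPM (0.482 to 2.0) in MOS and 6.03 CPM (5.46 to 6.64) in UOS. On the CatVI plates it was at 3.1 CPM (1.81 to 4.96) on pl1, 0.442 CPM (0.0112 to 2.46) on pl2, 0 CPM (up to 0.667) on pl5 and 4.35 CPM (1.88 to 8.57) on pl6. In CatVII it was at 0.125 CPM (0.0877 to 0.173) in OSalive and 0 CPM (up to 0.0411) in OSapop. Thus both CatVII sorts lay below LOS, MOS and UOS, while the interval of each CatVI plate overlapped that of MOS and only that of pl6 also overlapped those of LOS and UOS. The counts on pl6 came from 1 cell that had inner root sheath or hair shaft markers at 500 CPM or more, and without it pl6 had none. Over pooled stages, *Fgf5* had a count in 13.8% of AnaVI cells (26 cells; 9.19 to 19.5), 7.02% of CatVI cells (4 of 57; 1.95 to 17) and 0.922% of CatVII cells (2 cells; 0.112 to 3.29), although the CatVII cells were sequenced more deeply. With each cell thinned to 50000 counts, and shallower cells left out, 7.23% of AnaVI cells, 3.77% of CatVI cells and 0% of CatVII cells (up to 1.44%) kept a count. The level was carried by few cells: in the 15 UOS cells with a count it ran from 1.79 to 76.6 CPM with a median of 19.1 CPM, and 1 cell held 61.5% of the LOS counts. That LOS cell had 11424 detected genes and 2877848 counts, and it also held the most *Spry1*, *Spry2* and *Spry4* counts of the sort.

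*Fgf18* (ENSMUSG00000057967.12, GRCm39 chromosome 11, 33067014 to 33097828), the ligand of the resting bulge, had 2.02 CPM (1.86 to 2.19) in OSalive and 2.55 CPM (2.19 to 2.94) in OSapop. In AnaVI it had 2 counts in 1 UOS cell, 0.0293 CPM (0.00354 to 0.106), and no count in LOS or MOS, where 3 counts would be 0.280 and 0.351 CPM. On the 4 CatVI plates no count was found in 57 cells, which allows a share of up to 5.26% and a level of up to 0.213 CPM over the plates together. In CatVII 28 OSalive cells (22.4%) and 16 OSapop cells (17.4%) had a count, at medians of 6.39 and 11.5 CPM in those cells. The 2 UOS counts lay in a cell with markers of another lineage (500 CPM or more over 26 fibroblast, immune, melanocyte and endothelial genes). At 50000 counts per cell, 8.13% of CatVII cells (17 cells, 4.81 to 12.7) and 0% of AnaVI cells (up to 1.81%) had a count. The gap to AnaVI was thus also there at equal total counts per cell. For CatVI it could not be decided, since 0% of 53 cells allows up to 5.66%, which overlaps the CatVII interval. A single cell held 24.8% of the OSalive counts and 40.3% of the OSapop counts.

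*Fgf22* (ENSMUSG00000020327.4, GRCm39 chromosome 10, 79590875 to 79594431), a ligand known from inner root sheath, was close to its detection limit in every group. It had 14 counts in 4 UOS cells, 22 counts in 4 OSalive cells, 2 in OSapop, 1 each in LOS and pl1, and none in MOS, pl2, pl5 and pl6. The highest level was 0.205 CPM (0.112 to 0.344), in UOS, and the intervals of UOS and OSalive (0.0480 to 0.116) just overlapped. In the plot of ligand levels these values lie near 0 and the long bars mark the shallow plates.

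**Figure D1:**
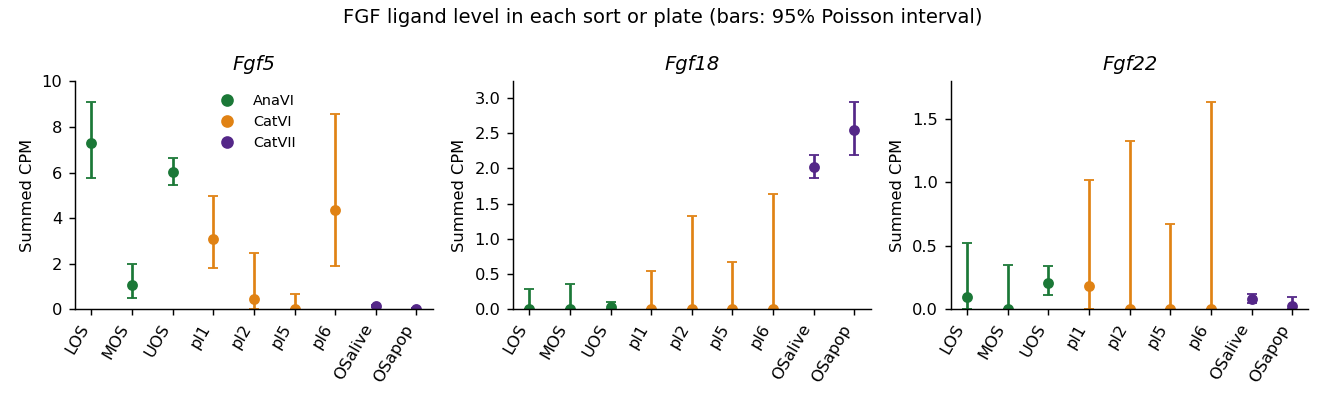
Summed level of each ligand in CPM (vertical axis, linear) in the 9 sorts or plates (horizontal axis; green AnaVI, orange CatVI, purple CatVII); points are sums over passing cells and bars are 95% Poisson intervals, with 3 counts as the upper end where no count was found. Fgf5 is at 6.03 to 7.28 CPM in UOS and LOS and at 0.125 CPM or less in CatVII, and Fgf18 is at 2.02 to 2.55 CPM in CatVII only.

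The receptors were expressed in every group. Their counts are summed over all isoforms of a gene, so the epithelial IIIb and mesenchymal IIIc forms, which bind different ligands, are not separated. *Fgfr3* and *Fgfr2* are the receptors best known from epithelium, and *Fgfr1* is the more widely expressed of the family.

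*Fgfr1* (ENSMUSG00000031565.18, GRCm39 chromosome 8, 26003670 to 26066824) had 35.8 CPM (32.3 to 39.6) in LOS, 131.7 CPM (124.1 to 139.6) in MOS and 107.9 CPM (105.5 to 110.4) in UOS. The plates had 62.5 CPM (56.1 to 69.5) on pl1, 29.6 CPM (22.9 to 37.6) on pl2, 5.34 CPM (3.42 to 7.94) on pl5 and 26.1 CPM (19.2 to 34.6) on pl6. OSalive reached 195.1 CPM (193.4 to 196.7) and OSapop 216.3 CPM (212.9 to 219.7). All 4 plates were thus below MOS and UOS, and both CatVII sorts were above every other sample. The median cell was at 113.3 CPM in UOS and 208.7 CPM in OSapop, near the sums, at 51.8 CPM in LOS, above the sum, and at 0 to 15.3 CPM on the plates, below the sums. At 50000 counts per cell *Fgfr1* was found in 93.7% of UOS cells (87.4 to 97.4), 37.7% of CatVI cells and 97.6% of OSalive and of OSapop cells.

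*Fgfr3* (ENSMUSG00000054252.18, GRCm39 chromosome 5, 33879018 to 33894412) had a different order. It was at 193.9 CPM (185.7 to 202.4) in LOS, 261.1 CPM (250.4 to 272.2) in MOS and 132.1 CPM (129.4 to 134.9) in UOS. OSalive was at 85.3 CPM (84.2 to 86.4) and OSapop at 108.1 CPM (105.7 to 110.5). The plates were uneven, with 95.4 CPM (87.4 to 103.9) on pl1, 34.9 CPM (27.6 to 43.5) on pl2, 129.7 CPM (119.4 to 140.7) on pl5 and 50 CPM (40.3 to 61.3) on pl6. The level on pl5 did not differ from that in UOS beyond counting error. Over pooled stages, *Fgfr3* had a count in 94.7% of AnaVI cells, 64.9% of CatVI cells and 91.7% of CatVII cells. With cells thinned as for *Fgf5*, these shares were 86.1%, 52.8% and 79.4%. On pl1 the counts lay in 47.4% of the cells, with the median cell at 0 CPM, and on pl2 in 33.3%.

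*Fgfr2* (ENSMUSG00000030849.18, GRCm39 chromosome 7, 129763471 to 132725079) spanned the narrowest range of the 3 receptors over the AnaVI and CatVII sorts. It was at 43.7 CPM (39.8 to 47.8) in LOS, 28.9 CPM (25.4 to 32.8) in MOS, 52.6 CPM (50.9 to 54.3) in UOS, 62.1 CPM (61.2 to 63.1) in OSalive and 56.4 CPM (54.7 to 58.2) in OSapop. The plates spread from 21.8 CPM (17.7 to 26.6) on pl5 over 82.6 CPM (70 to 96.8) on pl6 and 95 CPM (87.02 to 103.5) on pl1 to 144.8 CPM (129.6 to 161.4) on pl2. On pl2, however, 1 of 9 cells held 88.1% of the *Fgfr2* counts, and the median cell there was at 8.23 CPM. With cells thinned as for *Fgf5*, 69.3% of AnaVI cells, 54.7% of CatVI cells and 80.4% of CatVII cells had an *Fgfr2* count.

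Set per kilobase of the canonical transcript, the make-up of the 3 receptors differed across the groups. *Fgfr3* gave 77.2% of the receptor level in LOS, 70% in MOS and 53.8% in UOS, against 32.1% in OSalive and 36.1% in OSapop. *Fgfr1* gave 9.81%, 24.2% and 30.2% in LOS, MOS and UOS, and 50.4% and 49.7% in OSalive and OSapop. The plates pl1, pl2, pl5 and pl6 were uneven, with *Fgfr3* at 45.5%, 21.3%, 86.7% and 38.5%. There *Fgfr1* gave 20.5%, 12.4%, 2.45% and 13.8%, and *Fgfr2* gave 33.9%, 66.2%, 10.9% and 47.6%. The summed receptor level was 59.5, 88.5 and 58.2 CPM per kb in LOS, MOS and UOS, 30.7 to 49.6 CPM per kb on the plates, and 63 and 70.9 CPM per kb in OSalive and OSapop. No passing cell of the AnaVI and CatVII sorts lacked all 3 receptors, while 1 cell on pl1 and 2 on pl2 did. At 50000 counts, all 3 were found together in 60.9% of LOS, 40.6% of MOS, 57.7% of UOS, 64.5% of OSalive and 58.8% of OSapop cells. On the plates this share was 6.67% to 25%.

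**Figure D2:**
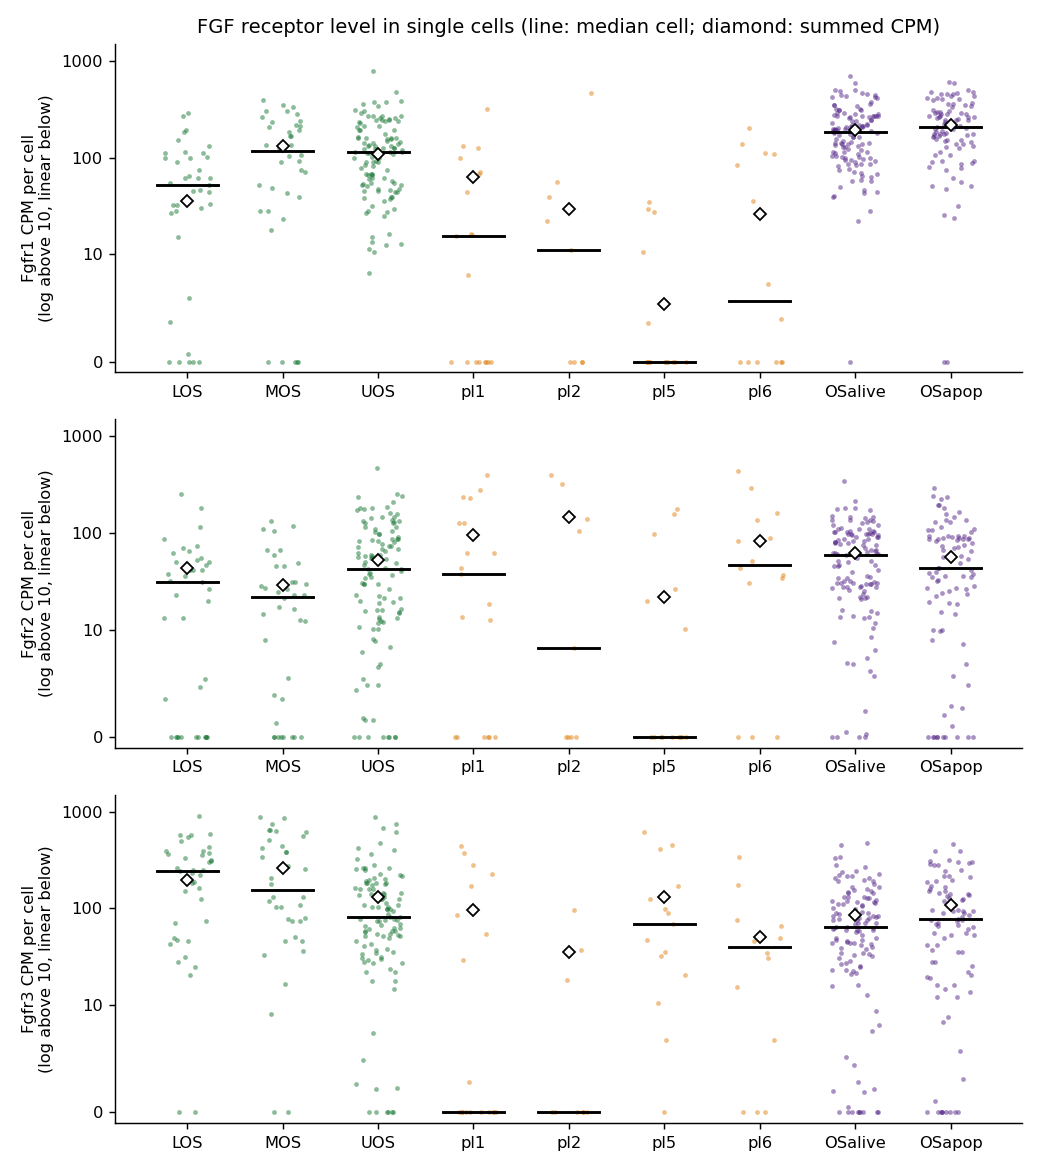
Level of each receptor in single cells in CPM (vertical axis, logarithmic above 10 and linear below) in the 9 sorts or plates (horizontal axis); each point is a cell, the black line is the median cell and the open diamond is the summed CPM. The median cell for Fgfr1 is at 113.3 CPM in UOS, at 15.3 CPM or less on the CatVI plates and at 208.7 CPM in OSapop.

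Of the feedback inhibitors, *Spred1* (ENSMUSG00000027351.14, GRCm39 chromosome 2, 116951524 to 117018277), which blocks the activation of RAF, had the highest level per kilobase of the 4 in MOS (6.95 CPM per kb), UOS (5.50) and OSapop (2.65), while *Spry1* had it in LOS (3.22) and OSalive (3.20). In CPM *Spred1* was at 12.1 CPM (10.1 to 14.4) in LOS, 44.01 CPM (39.7 to 48.7) in MOS and 34.8 CPM (33.4 to 36.2) in UOS. The plates were at 9.85 CPM (7.40 to 12.9) on pl1, 2.65 CPM (0.972 to 5.77) on pl2, 18.2 CPM (14.5 to 22.6) on pl5 and 16.9 CPM (11.5 to 23.9) on pl6. OSalive was at 9.61 CPM (9.26 to 9.98) and OSapop at 16.8 CPM (15.9 to 17.8). MOS and UOS were thus above all other samples. At 50000 counts 68.5% of UOS cells (59 to 77), 28.3% of CatVI cells and 28.7% of CatVII cells had a *Spred1* count.

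*Spry1* (ENSMUSG00000037211.12, GRCm39 chromosome 3, 37693897 to 37698755) was at 8.68 CPM (7.0 to 10.6) in LOS, 1.29 CPM (0.643 to 2.30) in MOS, 8.72 CPM (8.04 to 9.45) in UOS, 8.64 CPM (8.30 to 8.99) in OSalive and 4.57 CPM (4.09 to 5.09) in OSapop. Plates pl1 and pl6 had 13.3 CPM (10.4 to 16.7) and 5.98 CPM (2.98 to 10.7), and pl2 and pl5 had no count (up to 1.32 and 0.667 CPM). LOS, UOS and OSalive did not differ beyond counting error, although 1 cell held 65.6% of the LOS counts and 1 cell 18.9% of the OSalive counts. The level on pl1, the highest, came from 21.1% of its cells, and 1 cell held 49.3% of the counts. With cells thinned as for *Fgf5*, 15.1% of AnaVI cells, 7.55% of CatVI cells and 15.3% of CatVII cells had a *Spry1* count.

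*Spry2* (ENSMUSG00000022114.5, GRCm39 chromosome 14, 106128766 to 106136446) was low throughout, at 1.68 CPM (0.996 to 2.66) in LOS, 4.68 CPM (3.35 to 6.38) in MOS, 3.75 CPM (3.30 to 4.23) in UOS, 5.76 CPM (5.49 to 6.05) in OSalive and 7.06 CPM (6.47 to 7.70) in OSapop. The 4 plates lay between 1.28 and 2.23 CPM with intervals that overlapped. OSapop was the highest sample, and its interval overlapped that of no other. With cells thinned as for *Fgf5*, 18.9% of UOS, 7.55% of CatVI, 22.6% of OSalive and 23.5% of OSapop cells had a *Spry2* count.

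*Spry4* (ENSMUSG00000024427.7) had its highest level in LOS. It had 62 counts in 6 LOS cells, 5.79 CPM (4.44 to 7.42), and 67 counts in 6 UOS cells, 0.980 CPM (0.760 to 1.25). MOS, pl1, pl2 and pl5 had no count, and pl6 had 6 counts in 1 cell, 3.26 CPM (1.20 to 7.10). OSalive had 1 count in 287377663, and OSapop had 30 counts of which 1 cell held 93.3%, 0.411 CPM (0.277 to 0.586). Of the 6 UOS cells with *Spry4*, 5 also had *Fgf5*, which was found in 10 of the other UOS cells, and of the 6 LOS cells 3 had *Fgf5*, against 5 of 33. The UOS cells with *Spry4* were deeper, with a median of 1284488 counts against 459352, and the part of depth in this was not tested.

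**Figure D3:**
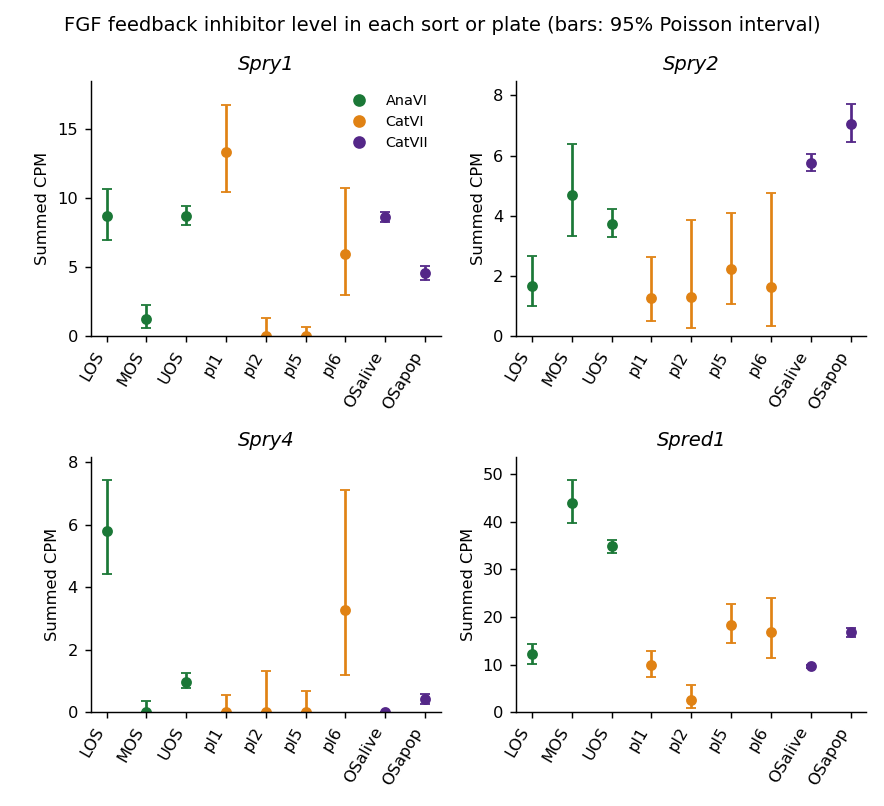
Summed level of each feedback inhibitor in CPM (vertical axes, linear, each with its own range) in the 9 sorts or plates (green AnaVI, orange CatVI, purple CatVII); bars are 95% Poisson intervals with 3 counts as the upper end where no count was found. Spred1 is highest in MOS (44.01 CPM) and UOS (34.8 CPM), and Spry4 is at 5.79 CPM in LOS and at 0.411 CPM or less in CatVII.

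To ask how the pathway differs at the end of regression, OSalive was set against UOS, the deepest of the AnaVI sorts. A gene was called where it had at least 100 counts over both groups and its summed CPM differed at least 2-fold, and intervals of ratios are exact binomial ones. Of the 8 members with 100 counts, *Fgf18* was called higher, and *Fgf5* and *Spred1* were called lower. Over the 14159 genes with 100 counts, 11.5% were called higher and 26.6% lower, with a median log2 ratio of -0.32, and 1 and 2 of 8 members are not far from these shares. *Fgf5* was 48.1-fold lower (34.2 to 69.7) and *Fgf18* 69-fold higher (19 to 571), the latter against only 2 counts in UOS. *Spred1* was 3.62-fold lower (3.43 to 3.83). *Fgfr1* was higher by a log2 ratio of 0.85 (0.82 to 0.89), which is 1.18 above the median of all genes, and *Fgfr3* was lower by a log2 ratio of -0.63 (-0.67 to -0.60), 0.31 below that median. The 13 alternative ratios of *Fgfr3* ran from -0.78 to -0.15, and only 3 lay inside this counting interval. *Fgfr2* stood at 0.24 (0.19 to 0.29) and *Spry2* at 0.62 (0.43 to 0.82), while the interval of *Spry1*, -0.01 (-0.14 to 0.12), held 0. Median-of-ratios and TMM scaling moved the median of all genes to 0.11 and 0.16, split the calls into 18.2% higher and 17.7% lower with the former, and put *Fgfr1* (1.29 and 1.34) and *Spry2* (1.06 and 1.10) among the members called higher. Without the 7 UOS and 6 OSalive cells with markers of another lineage *Fgf5* stood at -5.32 and *Fgf18*, with no UOS count left, at 5.40 or more, and without the 7 UOS cells with inner root sheath markers at -5.40 and 5.93, against -5.59 and 6.11 with all cells.

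The 4 CatVI plates, summed and set against UOS, were below it for 6 of the 7 members with 100 counts, of which *Spry1* was level (0.01) without pl5. The median log2 ratio of all genes was -0.18, so most genes lay below UOS as well. *Fgf5*, *Spry1* and *Spry2* met 100 counts through UOS, the deeper side. The 6 of 7 therefore cannot be read as a shift of the members as a set. Called lower were *Fgf5*, 3.27-fold (2.20 to 5.06), *Fgfr1*, 3.15-fold (2.88 to 3.47), *Spred1*, 2.83-fold (2.43 to 3.33), and *Spry2*, 2.29-fold. No member was called higher, and *Fgfr2* alone was above UOS, by a log2 ratio of 0.57 (0.47 to 0.67). Of the 11497 genes with 100 counts, 24.9% were called lower and 12.9% higher. *Fgfr3* stood at -0.54 (-0.63 to -0.46) and *Spry1* at -0.55 (-0.90 to -0.22). The 4 lower members were called lower with any 1 plate left out, but the fold differed with the plate, and *Spry2*, at -0.64, was not called as a mean over cells. The log2 ratio of *Fgfr1* was -1.66 over all plates, -2.74 without pl1 and -1.18 without pl5, and that of *Fgf5* was -1.71, -2.53 without pl1 and -1.15 without pl5. *Spry1*, at -2.77 without pl1, was called lower only then and when the cell with most counts was left out. The OSalive and CatVI comparisons share UOS as the reference.

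**Figure D4:**
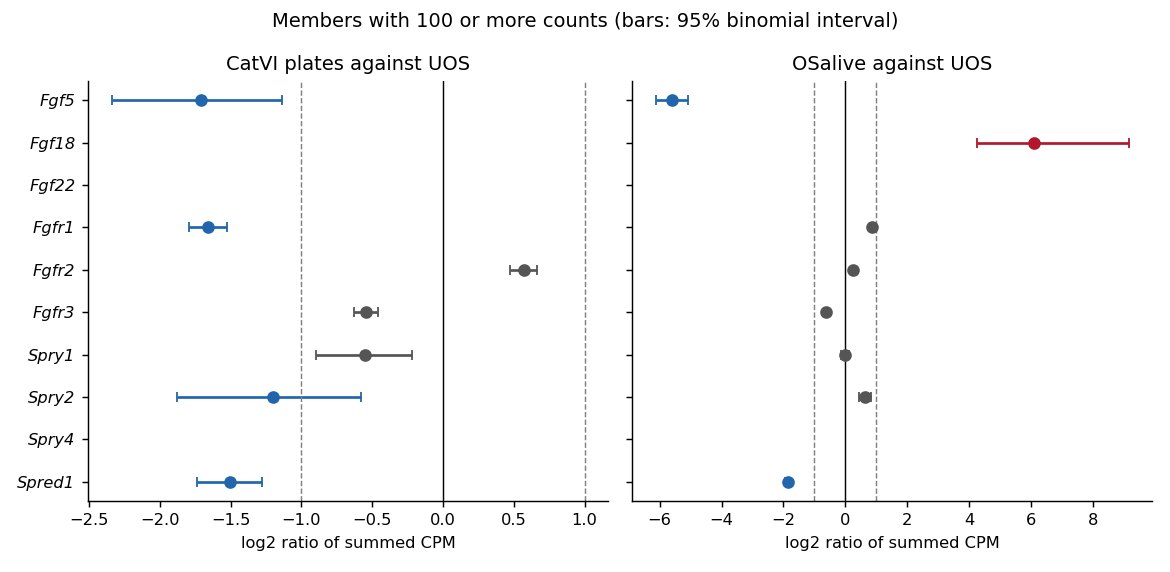
log2 ratio of summed CPM (horizontal axes, which differ in range) of the CatVI plates to UOS (left) and of OSalive to UOS (right) for members with 100 or more counts; points are ratios, bars are 95% binomial intervals, dashed lines mark 2-fold, and blue and red mark members called lower and higher. Fgf5 and Spred1 are called lower in both panels, and Fgfr1 is called lower on the CatVI plates, at -1.66, and is at 0.85 in OSalive.

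Within AnaVI, UOS was set against MOS and LOS to ask how the members differ along the ORS. Against MOS, *Fgf5* was 5.72-fold higher (2.99 to 12.6) and *Spry1* 6.77-fold higher, and no member was called lower. Over 11114 genes 23.2% were called higher and 6.56% lower, and 2 of 7 members is not far from the former share. Both members met 100 counts through UOS (412 and 596 counts, against 9 and 11 in 3 MOS cells each). Of these MOS counts 1 cell held 77.8% for *Fgf5* and 63.6% for *Spry1*. *Fgfr3* was just inside the limit at -0.98 (-1.05 to -0.92) and was called lower with median-of-ratios scaling (shares of 19% and 9.41%). Against LOS, *Fgfr1* was 3.01-fold higher (2.72 to 3.35), *Spred1* 2.87-fold higher (2.40 to 3.45) and *Spry2* 2.23-fold higher, and *Spry4* was 5.90-fold lower (4.11 to 8.46). Here 3 of 8 members and 14.3% of 11473 genes were called higher, and 1 member and 14.1% of the genes lower. *Fgf5* and *Spry1* did not differ between UOS and LOS beyond counting error, with log2 ratios of -0.27 (-0.62 to 0.10) and 0.01 (-0.31 to 0.34). LOS also carried the highest fibroblast, melanocyte (157.2 CPM) and endothelial (99.9 CPM) marker sums of the AnaVI sorts, and 10 of its 39 cells had such markers at 500 CPM or more. Without them *Fgfr1* stood at 1.74 and *Spred1* at 1.69 against 1.59 and 1.52 with all cells, and *Spry4* at -2.77 against -2.56, then under 100 counts and no longer called. *Spry4* also fell short of 100 counts without its top cell in each sort or without cells with inner root sheath markers, and *Fgfr1* was at 0.96 and not called as a mean over cells.

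At the end of regression, cells that carried annexin V (OSapop) were set against those that did not. Of 7 members with 100 counts none was called between OSapop and OSalive in either direction, where 10.6% of 13886 genes were called higher and 11.3% lower (7.91% and 13.8% with median-of-ratios scaling). The nearest were *Spry1*, lower by -0.92 (-1.09 to -0.75), and *Spred1*, higher by 0.80 (0.71 to 0.90). *Spry1* was called lower under all 3 other scalings and, at -1.28, without cells with markers of another lineage, and stood at -0.38 with 1 cell kept per well label. *Fgf18* was higher by 0.34 (0.09 to 0.58), but stood at -0.59 without those cells, of which OSapop had 10 and OSalive 6, at -0.36 with cells thinned to 50000 counts, and at 0.003 without its top cell in each sort. *Fgfr2* (-0.14), *Fgfr3* (0.34) and *Spry2* (0.29) differed by 1.27-fold or less, and *Fgfr1*, at 0.15, turned to -0.04 with median-of-ratios and TMM scaling.

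The plates pl1 and pl2 carry the same label and give the only view here of the spread between labelled plates. In OSalive, OSapop and UOS, 50, 26 and 23 well labels were on more than 1 passing cell. These sorts may therefore each hold more than 1 plate, which their labels do not separate. Of 3 members with 100 counts, *Fgfr1* was 2.11-fold and *Fgfr3* 2.73-fold lower on pl2, and *Fgfr2* stood at 0.61 (0.41 to 0.81). Over 3791 genes, 32.5% were called lower and 12.8% higher (26.2% and 17.9% with median-of-ratios scaling). Plates of 1 label differed by 2-fold in at least as large a share of genes as OSalive and UOS did, but these shares are not alike. They rest on 5484234 counts on pl1 and 2264614 on pl2, beside 287377663 in OSalive and 68341006 in UOS. The part of depth and of few cells was not tested. With 9 cells on pl2, 1 cell held 59.7% to 88.1% of the counts of each receptor there, and *Fgfr2* turned to -1.68 without the top cells. Among members with fewer counts, *Spred1* was 3.72-fold lower on pl2 (6 against 54 counts) and *Fgf5* 7.02-fold lower (1 against 17 counts). All calls of members in the comparisons above other than *Fgf5* and *Fgf18* in OSalive against UOS, at 2.23- to 6.77-fold, are smaller than this last value. That value rests on 1 count, however, and its interval is too wide for it to measure the spread between plates.

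Other genes of the pathway were counted in lists of 22 FGF family genes, 7 receptors and co-receptors, 17 heparan sulphate and FGF-binding genes, 20 adaptor and RAS-ERK genes, 14 feedback inhibitors and 8 ERK-responsive transcription factors, which hold the members too. Between OSalive and UOS, 6 of 57 such genes other than the members were called higher (10.5%) and 8 lower (14%), beside 11.5% and 26.6% of all genes. Of the FGF family 5 genes had 100 counts, and besides *Fgf18* and *Fgf5* these were *Fgf1*, at 15.1 CPM against 6.56 CPM (log2 1.20, 1.06 to 1.35), *Fgf11*, 0.884 against 0.0878 CPM (3.33), and *Fgf13*, 0.0278 against 1.43 CPM (-5.69). All 5 were called, 3 higher and 2 lower, but *Fgf11* and *Fgf13* are intracellular FGF homologous factors and not secreted ligands of the receptors. All but *Fgf1* met 100 counts almost wholly through the group where they were higher. For genes this low, meeting the minimum that way makes a call likely, so 5 of 5 cannot be weighed against the shares of all genes. *Fgf1*, which can bind all FGF receptors, had the highest CPM of this list over all cells, at 13.2 CPM, with length not taken into account. Of 4 receptors 1 was called, the decoy receptor *Fgfrl1*, lower at -1.53 (-1.85 to -1.20). Of 16 heparan sulphate genes 2 were higher, the syndecan *Sdc3* (43.1 against 6.56 CPM, 2.72) and the sulphatase *Sulf1* (1.68). Of 20 cascade genes 4 were lower, among them *Hras* (4.09 against 24.1 CPM, -2.56), *Nras* (-1.23) and the RAS-inactivating *Rasa1* (-1.44), and none was higher. Of 13 feedback inhibitors *Spred3* was higher (1.87) and *Dusp4* lower (-2.06) besides *Spred1*, and of 7 transcription factors *Fosl1* was higher (2.69) and *Etv5*, an ETS factor induced by FGF signals, lower at 8.71 against 17.7 CPM (-1.02). The medians of the 6 lists were 1.20, -0.20, -0.36, -0.51, -0.15 and 0.31, beside -0.32 for all genes. The first, of the FGF family, rests on the same 5 genes and cannot be weighed against that of all genes either.

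On the CatVI plates against UOS, 10 of 52 genes of the lists other than the members were called lower (19.2%) and 4 higher (7.69%), shares below the 24.9% and 12.9% of all genes. Besides *Fgf5*, *Fgf1* (1.07 against 6.56 CPM, -2.62) and *Fgf13* (-1.17) were lower among 3 FGF family genes, and of 4 receptors *Fgfr1* alone was called. Lower among 15 heparan sulphate genes were *Sdc2* (-3.32), *Sdc4* (-1.85), *Ext1* (-1.31) and the FGF carrier *Fgfbp1* (-2.07), and *Sdc3* was higher (37.7 against 6.56 CPM, 2.52). Of 19 cascade genes the adaptor *Gab1* (1.54) and *Braf* (1.07) were higher and none was lower. Of 12 feedback inhibitors 3 were lower, *Il17rd* (1.28 against 16.7 CPM, -3.70) besides *Spred1* and *Spry2*. Of 6 transcription factors *Etv5* (-2.83), *Egr1* (81.1 against 208.2 CPM, -1.36) and *Fos* (-1.67), all induced early by ERK, were lower, and *Etv4* was higher (1.21). Medians of the lists were -1.71 (FGF family), -0.03, -0.41, 0.23, -0.40 and -0.87, beside -0.18 for all genes. The 3 FGF family genes met the minimum of counts almost wholly through UOS, which was deeper than the plates together. *Fgf11* was higher on the plates, at 0.994 against 0.0878 CPM (3.5, 2.03 to 5.17), but fell short of that minimum. The median of the FGF family therefore cannot be weighed against that of all genes.

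Between OSapop and OSalive, 3 of 57 genes of the lists other than the members were called higher (5.26%) and 5 lower (8.77%), beside 10.6% and 11.3% of all genes. *Fgfr4* was at 1.79 CPM in OSapop and had no count in OSalive, a log2 ratio of at least 7.42, and *Fgfbp1* (1.15) and *Hs6st2* (1.16) were higher as well. *Gpc3* (-2.78), *Sulf1* (-1.48), *Dusp4* (-2.29), *Dusp6*, the ERK phosphatase (12.1 against 24.6 CPM, -1.03), and *Etv4* (-1.42) were lower. Among the genes with the highest CPM in each list, besides the members and *Fgf1* and again not set per length, were the syndecans *Sdc1* (91.9 to 646 CPM over the 9 groups) and *Sdc4* (17.7 to 208.7 CPM), *Ndst1* (30.4 to 68.2 CPM), *Ptpn11* (14.7 to 48.7 CPM), *Nf1* (22.1 to 52.2 CPM), *Flrt2* (30.5 to 84.5 CPM), *Flrt3* (42.5 to 103.9 CPM), *Cbl* (39.7 to 76.1 CPM), *Egr1* (63.6 to 386 CPM), *Fos* (33.8 to 188.4 CPM) and *Myc* (3.78 to 49.9 CPM).

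The genes most like each member were those with the highest Pearson correlation of log2(CPM + 1) over the 9 groups, which share libraries, depth and marker content, so the values are descriptions. For *Fgf5* they were *Nop58* (r = 0.979), *Nop10* (0.970) and *Ncl* (0.963), and for *Fgf18* *Myod1* (0.994), *Serpinb10* (0.993) and *Serpinb11* (0.985), all 3 below 1 CPM outside CatVII. For *Fgfr1* they were *Slc29a1* (0.981), *Setbp1* (0.965) and *Lfng* (0.965), for *Fgfr2* *Pik3c2g* (0.977), *Gm37783* (0.955) and *Lancl2* (0.953), and for *Fgfr3* *Sav1* (0.977), *Ckap4* (0.966) and *Mcrs1* (0.962). For *Spry1* they included *Zfp874a* (0.970) and *Gm45871* (0.966), and for *Spry2* *Chat* (0.975), *Flrt2* (0.961) and *Grem1* (0.961). Among the genes most like *Spry4* were *Bub1* (0.959) and *Lbr* (0.958), and *Spred1* most like *Tmem167b* (0.970), *Alcam* (0.946) and *Ppp1r3b* (0.941).

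Within a sort, the cells that carried a ligand were set beside those that did not, as a description since counts decide which cells fall on which side. The 15 UOS cells with *Fgf5* had *Krt75*, a keratin of the companion layer, at 78.97 CPM against 3.19 CPM in the other 97 cells, and *Krt15*, a bulge keratin, at 421 against 1216 CPM. The 5 inner bulge and companion layer markers together were at 254.2 against 197.2 CPM, *Timp3* among them was at 89.3 against 141.7 CPM, and in LOS *Krt75* was lower in the cells with *Fgf5* (96.05 to 112.4 against 183.1 to 208.9 CPM, as intervals). Their receptor levels leaned to *Fgfr3*, at 195.8 against 107.9 CPM, and away from *Fgfr1*, at 48.8 against 130.4 CPM. *Cd34* was at 39.3 against 96.2 CPM, and *Spred1* differed little, at 32.1 (29.6 to 34.8) against 35.8 CPM (34.2 to 37.5). These cells were deeper, at a median of 1132299 against 409447 counts, and carried more inner root sheath and hair shaft markers (3077 against 79.1 CPM) and fibroblast markers (1135 against 58.6 CPM), whose part in these values was not tested. *Fgf5* stood at 5.30 CPM, in 10 cells, in the UOS cells with less than 500 CPM of inner root sheath markers, and at 5.17 CPM in those with less than 500 CPM of other-lineage markers. In LOS the 8 cells with *Fgf5* had *Fgfr1* at 14.7 CPM against 63.9 CPM in the other 31 and *Fgfr3* at 174.6 against 219.6 CPM.

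The 28 OSalive cells with *Fgf18* and the 97 without had similar depths, with medians of 2030405 and 2204714 counts. They had *Cd34* at 208.3 against 85.9 CPM, with a *Cd34* count in 28 of 28 and 57 of 97 cells, and *Fgfr3* at 119.9 against 76.3 CPM. *Fgfr1* was at 218.6 CPM (214.8 to 222.4), and between 187.2 and 190.8 CPM in the cells without, *Spry2* at 3.99 against 6.22 CPM and *Spred1* at 4.60 against 10.9 CPM. *Krt6a*, a keratin of the inner bulge, was at 165.2 against 130.8 CPM, with a count in 92.9% against 59.8% of the cells. The 16 OSapop cells with *Fgf18* gave the same order for *Cd34* (135.5 against 93.2 CPM), *Krt6a* (353.6 against 159.5 CPM), *Fgfr3* (199.8 to 214.5 against 80.1 to 84.8 CPM, as intervals) and *Spred1* (9.72 against 18.6 CPM), and the reverse for *Spry2* (12.4 against 5.69 CPM). The other 4 markers listed with *Krt6a* were not higher there, with *Krt6b* at 0.200 against 2.36 CPM, *Krt16* at 0 against 2.24 CPM, *Krt75* at 0.666 against 0.862 CPM and *Timp3* at 22.2 against 22.8 CPM. Other outer root sheath and bulge markers differed in direction. *Itga6* was at 50.84 against 68.22 CPM in OSalive and 80.49 against 88.48 CPM in OSapop. *Krt14* was also lower in both sorts, at 257.3 against 397.4 CPM in OSalive. *Krt15* and *Lhx2* were higher in both sorts, *Lgr5* and *Sox9* in OSalive, and *Sox9* was lower in OSapop. The summed list stood at 4867 against 4577 CPM in OSalive and 4883 against 5262 CPM in OSapop. Fibroblast markers stood at 599 against 82.5 CPM in OSalive and 296.2 against 158.1 CPM in OSapop, and their part was not tested.

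**Figure D5:**
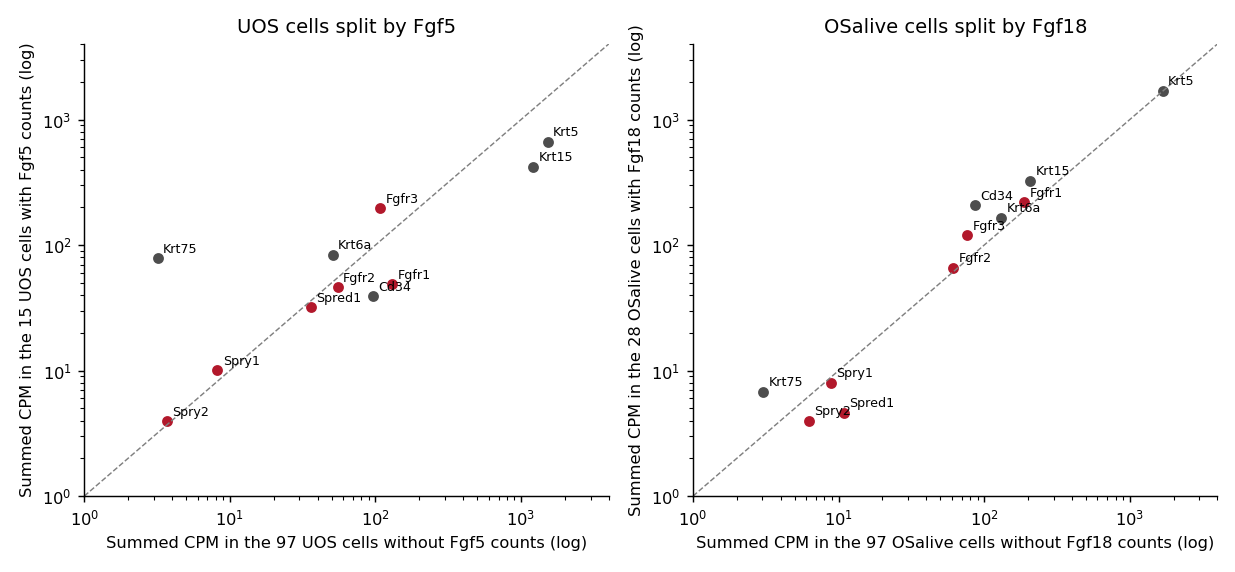
Summed CPM of receptors and inhibitors (red) and keratinocyte genes (grey) in cells with a ligand count (vertical axes, log) against cells of the same sort without (horizontal axes, log): 15 against 97 UOS cells for Fgf5 (left) and 28 against 97 OSalive cells for Fgf18 (right); the dashed line marks equal levels. Krt75 lies above the line for Fgf5 (78.97 against 3.19 CPM) and Cd34 above it for Fgf18 (208.3 against 85.9 CPM).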

How the data were processed

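The authors trimmed the Smart-seq2 reads, aligned them to mm39 (the GRCm39 assembly) with STAR 2.6, quantified them with Salmon 1.4.0 and summed them to genes with Tximport in R 3.6.1, per the labels and the methods of the study. The deposited table holds estimated counts (expected counts) for 55335 genes, 92 ERCC spike-ins and 1036 cells, not normalized. Here they were rounded (0.47% were not whole), spike-ins were left out of totals, and cells with at least 2000 detected genes were summed per sort or plate, the sample of pooled mice. Reads were counted with no molecular identifiers and so are not independent of each other. Of 1037 samples, 1 had no column and 1 cell was unassigned because its labels give 2 stages. Symbols, positions and transcript lengths came from GENCODE M39. A second deposited table, of cell annotations, was not used.

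A gene was called with at least 100 counts over both groups and a summed CPM ratio of 2-fold or more, a group at 0 being set to 3 counts. No ratio was given where both were at 3 counts or fewer. Intervals are exact (binomial or Poisson, 95%). Since each group is 1 sample, no p-value was computed. Named genes are the 10 members, pathway genes called in a comparison that is counted, the 3 most abundant of each list, and the 3 genes most like each member among those with 500 or more counts, of which some are not reported here. The members, lists and call rule were chosen with earlier results of these data known.

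Alternatives were median-of-ratios, TMM (edgeR 4.0.16 in R 4.3.3) and annotated-gene scaling, means over cells, 1000 or 3000 detected genes, a minimum of 20 counts or none, a 1.5-fold limit, thinning to 50000 counts, and leaving out the top cell, a plate, or cells sharing a well label (99 well labels were on more than 1 passing cell, and no columns were identical). The scripts ran in Python 3.11.15 with pandas 2.3.3, scipy 1.17.1 and numpy 2.4.6, and the ratio step was tested on simulated data.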

Additional observations from a re-analysis of the deposited data

Results flagged for a closer look

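One cell of CatVII sort and CatVI stage labels, which was left out of all comparisons, had 8 *Fgfr1* counts and 10 *Fgfr3* counts in 52544, above the 3 that a count of 0 allows. *Fgfr1* also differed in direction between the stages when annexin V-labelled cells were set against live ones: at CatVI, pl5 against pl1 and pl2 gave a log2 ratio of -3.31 (5.34 against 52.9 CPM, from 24 and 410 counts), while pl6, the other annexin V plate, was at 26.1 CPM, overlapping pl2 at 29.6 CPM, and pl5 and pl6 together at 11.4 CPM, and at CatVII OSapop against OSalive gave 0.15 (216.3 against 195.1 CPM), which turned to -0.04 with median-of-ratios and TMM scaling. The difference between these ratios was not tested, since each side is 1 sample of few plates.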

How the results depend on the processing

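Each sort or plate is 1 sample, so the intervals hold counting error only. The comparison of pl1 and pl2 is the only look at spread between labelled plates, and it may not hold the spread between mice. Shallow plates limit what can be seen of *Fgf18*, *Fgf22* and *Spry4* at CatVI, and isoforms, strand and neighbouring genes were not separated. The 3 calls between OSalive and UOS became 5 under median-of-ratios or TMM scaling, 5 with a minimum of 20 counts or none, 6 at 1.5-fold and 1 after thinning, where *Fgf5* and *Fgf18* fell under 100 counts. The 4 calls at CatVI became 2 after thinning. The 2 calls of UOS against MOS became 4 as means over cells, without the top cell and at 1.5-fold, and after thinning both (*Fgf5* and *Spry1*) were lost and *Fgfr2* and *Fgfr3* were called in their place. The 4 against LOS became 1 after thinning. The 0 calls of OSapop against OSalive became 1 under median-of-ratios, TMM or annotated-gene scaling and without other-lineage cells, 3 with a minimum of 20 counts or none, and 2 at 1.5-fold. The 2 calls of pl2 against pl1 became 1 under median-of-ratios or TMM scaling, as means over cells or after thinning, 4 with a minimum of 20 counts and 5 with none. *Fgfr1* turned to 0.46 there as means over cells, and the cause was not tested. Over all alternatives *Fgf5* in OSalive against UOS ran from -6.30 to -2.90, *Fgf18* from 2.16 to 6.59, *Spred1* from -2.18 to -1.38 and *Fgfr1* from 0.47 to 1.34. Of 484 alternative ratios of members, 458 had the same sign, 63.4% lay within the counting interval of the reported ratio, and 36.4% lay outside it with no called ratio changing sign but that of *Fgfr1* above. Leaving out cells with other-lineage or inner root sheath markers was chosen after seeing the data. No paired analysis was possible because the cells of the mice of each stage were pooled before sorting.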
